A study of Mus musculus with 3 samples.

Results

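The genes described are 29 genes of hexose transport, glycolysis, lactate handling, fructose use and gluconeogenesis, taken by gene symbol from the 28692 genes of a single-cell RNA sequencing study of mouse small intestinal crypts. They comprise 4 hexose transporters, 10 genes of the preparatory steps of glycolysis, 5 of its payoff steps, 5 of lactate and pyruvate handling, and 5 of fructose use and gluconeogenesis, and all 29 were found. The study made 3 libraries, 1 per genotype, from adult C57BL/6 mice that all carried Olfm4-IRES-eGFPCreERT2, a tamoxifen-inducible Cre recombinase expressed from Olfm4, a gene of crypt base stem cells. The control library, named Het in the labels, came from the genotype CDC42+/flox, the KO library from CDC42flox/flox, and the rescue library from CDC42flox/flox with Yapflox/flox and Tazflox/+. CDC42 is a small GTPase that organises cell polarity and actin, and YAP and TAZ are transcriptional co-activators of the Hippo pathway. The tamoxifen schedule and the number of mice behind each library are not given in the sources used here, so with 1 library per genotype no difference could be tested, and genotype cannot be told apart from mouse or library.

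Absorptive cells of the villus take glucose and galactose from the lumen through the sodium-coupled carrier SGLT1 (Slc5a1) and fructose through GLUT5 (Slc2a5), and pass them to the blood through GLUT2 (Slc2a2), whereas GLUT1 (Slc2a1) is the basal glucose carrier of many growing cells. Glycolysis splits the hexose in its preparatory steps and recovers ATP in its payoff steps, and lactate dehydrogenase and the monocarboxylate carriers MCT1 (Slc16a1) and MCT4 (Slc16a3) dispose of the pyruvate as lactate. The small intestine also metabolises fructose through ketohexokinase (Khk), and holds the gluconeogenic enzymes fructose-1,6-bisphosphatase (Fbp1), cytosolic phosphoenolpyruvate carboxykinase (Pck1) and glucose-6-phosphatase (G6pc). Proliferating crypt cells and mature villus cells use different members of these families.

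Levels were given as CPM, the unique molecular identifiers (UMIs, tags that mark single captured transcripts) of a gene per 1000000 UMIs pooled over the barcodes of a type, with exact 95% Poisson intervals. Ratios of CPM had exact 95% binomial intervals. All intervals cover counting error only and say nothing about variation between mice. Epithelial barcodes had at least 2 UMIs of Epcam, the epithelial adhesion gene, and none of Ptprc, the leukocyte gene, and came from barcodes that reached 500 genes and 1000 UMIs with no more than 20% of UMIs from mitochondrial genes. They numbered 515, 1504 and 726, always in the order control, KO, rescue. Among them, Mki67 barcodes (at least 2 UMIs of this proliferation gene) numbered 77, 213 and 247, and Fabp1-high barcodes (at least 0.5% of UMIs from this enterocyte fatty acid binding protein) 125, 806 and 208. Muc2-high barcodes (at least 0.1% of UMIs from this goblet cell mucin) numbered 60, 203 and 38, and Lgr5-positive barcodes (at least 1 UMI of this stem cell gene) 157, 17 and 70. A barcode could belong to more than 1 type. UMIs were read at the 3' end, so levels were not divided by length. Different genes were compared in level only within isoform and paralog families, as shares of UMIs.

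Median depth was 33401, 41467 and 46115 UMIs per epithelial barcode, and the mitochondrial limit alone removed 3003, 1699 and 990 barcodes. Libraries shared 3 to 11 barcodes pairwise, 0 of them epithelial in both. The Cdc42 transcript did not check the labels. It stood at 248.8 CPM in control, 384 in KO and 383 in rescue epithelium, Yap1 at 26.4, 24.6 and 20.4 CPM, and Wwtr1, which encodes TAZ, at 7.33, 13.3 and 2.86 CPM. The sources used here do not name the deleted exons, and 3' UMIs outside them check nothing, so control, KO and rescue mean the libraries labelled so.

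The types were checked against markers. Fabp1-high barcodes carried summed enterocyte markers of 73960, 82430 and 58930 CPM in the control, KO and rescue libraries, but not in the same mixture. The brush border genes Sis (2260, 264 and 2237 CPM) and Anpep (1471, 273 and 1921 CPM) were lowest in the KO library, and Alpi (894, 3083 and 909 CPM) and Apoa4 (4259, 8787 and 2349 CPM) highest. In Mki67 barcodes the summed cycling markers were 897, 1124 and 1341 CPM, the summed Paneth cell markers 62490, 103 and 3128 CPM, and the summed enterocyte markers 3090, 10070 and 2643 CPM. Summed stem cell markers there were 1008, 263 and 480 CPM and summed goblet markers 6725, 2221 and 1751 CPM. In Muc2-high barcodes the summed goblet markers were 117400, 224300 and 150700 CPM and the summed Paneth markers 100700, 8998 and 6652 CPM. In Lgr5-positive barcodes the summed stem cell markers were 1610, 1253 and 1141 CPM. The summed cycling markers there were 390, 815.5 and 1152 CPM and the summed Paneth markers 119300, 152.5 and 75320 CPM. The summed dissociation response genes (Fos, Jun, Egr1 and others) were 4644, 1332 and 3079 CPM in Fabp1-high and 7110, 3129 and 4291 CPM in Mki67 barcodes. Summed immune markers stayed at or below 50.65 CPM in the 4 types. What part these mixtures had in the values below was not tested, except where a value without them is given.

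A difference was counted where 2 libraries were at least 2-fold apart and 1 of them had at least 20 UMIs of the gene. In Fabp1-high barcodes 28 of the 29 genes had 20 UMIs in KO or control. Of these, 3 were at least 2-fold higher in the KO library (Slc2a1, Hk1 and Slc16a3), against 10.7% of all 10785 genes measured, and 11 at least 2-fold lower (Slc5a1, Slc2a2, Slc2a5, Pfkfb3, Pgam1, Slc16a1, Pdk1, Khk, Fbp1, Pck1 and G6pc), against 17.7% of all genes. Their median log2 ratio was -0.14 and that of all genes -0.17. Between rescue and KO, 8 were at least 2-fold higher in the rescue library (Slc5a1, Slc2a2, Slc2a5, Pfkfb3, Khk, Fbp1, Pck1 and G6pc) and 6 lower (Slc2a1, Hk1, Pfkl, Aldoa, Aldoc and Slc16a3), against 10.2% and 12.1% of all 10756 genes. Both comparisons use the KO library and are not independent. At least 2-fold lower in the KO library were 3 of 4 hexose transporters and 4 of 5 genes of fructose use and gluconeogenesis, 1 of 10 preparatory genes, 1 of 5 payoff genes and 2 of 4 measured genes of lactate and pyruvate handling.

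**Figure D1:**
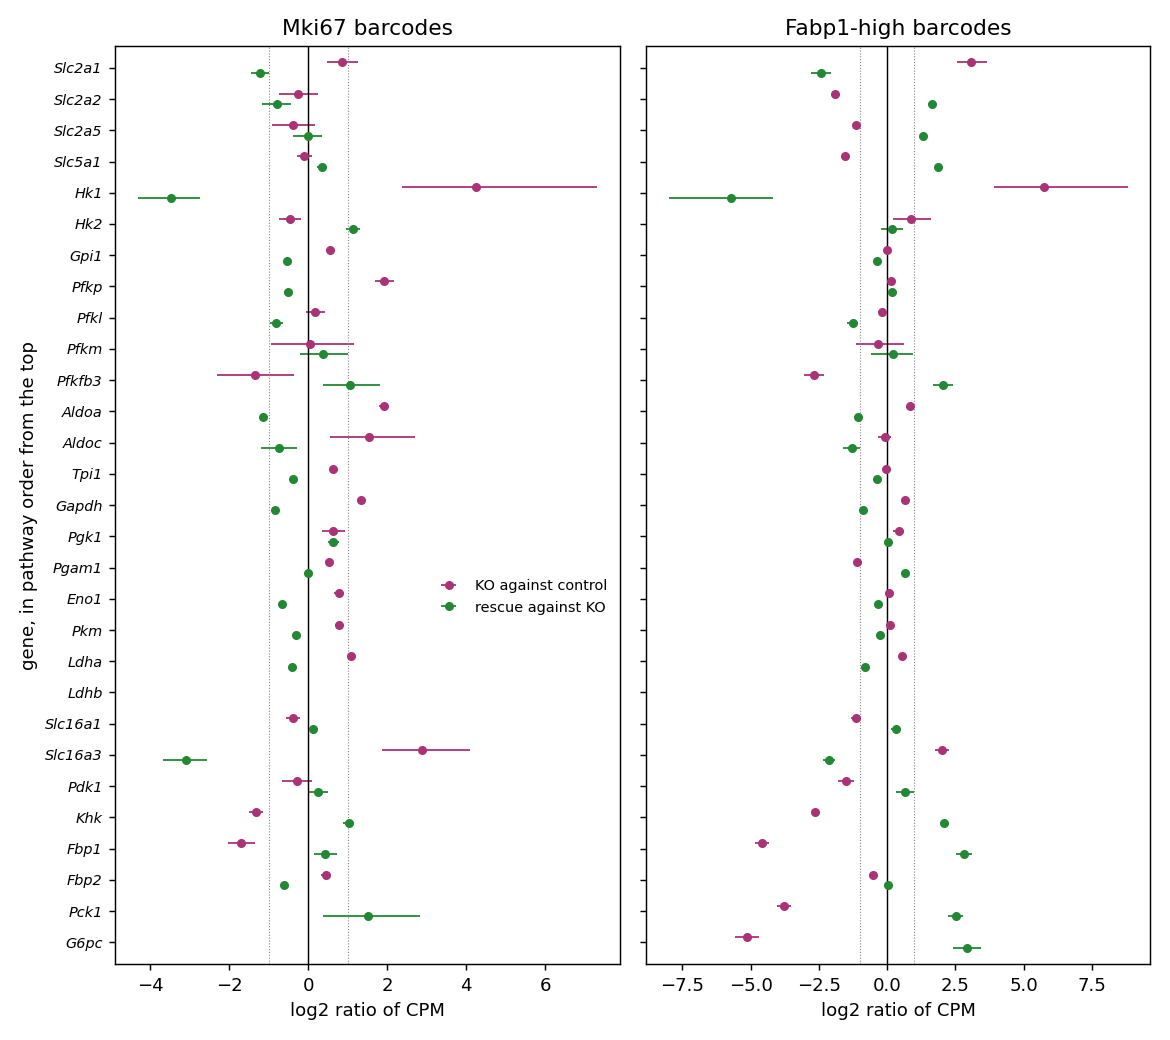
Log2 ratios of CPM for the 29 genes in pathway order, in Mki67 barcodes (left) and Fabp1-high barcodes (right). Purple points are KO against control, green points rescue against KO, bars exact 95% intervals of counting error, dotted lines 2-fold, and genes under 20 UMIs in both libraries have no point. In Fabp1-high barcodes most of the enzymes from Gpi1 to Ldha lie near 0 and the transporters, Khk, Fbp1, Pck1 and G6pc do not.

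The promoters of 5 of these genes that carry contrasts described below are shown. All 5 hold the letters ACGTG, and for a gene with more than 1 RefSeq window the one with most ACGTG is printed. Genes with larger contrasts and no ACGTG, among them G6pc, Fbp1 and Pck1, are not printed, so the 5 do not stand for the others. In Fabp1-high barcodes Slc2a1 and Slc16a3 were at least 2-fold higher in the KO library than in control, and Slc5a1 and Khk at least 2-fold lower. Ldha was at least 2-fold higher in KO Mki67 barcodes. Each is the 250 bases before a RefSeq start on the plus strand of GRCm38.p6, in lower case, with every ACGTG, the core of the hypoxia response element, in capitals on either strand, together with the leading C where it forms the E-box CACGTG. The windows lie at chr4:119108495-119108744 for Slc2a1, chr11:120948817-120949066 for Slc16a3, chr7:46845554-46845803 for Ldha, chr5:33103969-33104218 for Slc5a1 and chr5:30921309-30921558 for Khk.
Slc2a1: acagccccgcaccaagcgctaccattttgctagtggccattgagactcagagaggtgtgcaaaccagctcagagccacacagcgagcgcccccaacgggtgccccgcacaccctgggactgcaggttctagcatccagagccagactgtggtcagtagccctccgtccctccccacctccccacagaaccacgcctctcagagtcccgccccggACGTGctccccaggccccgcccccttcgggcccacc
Slc16a3: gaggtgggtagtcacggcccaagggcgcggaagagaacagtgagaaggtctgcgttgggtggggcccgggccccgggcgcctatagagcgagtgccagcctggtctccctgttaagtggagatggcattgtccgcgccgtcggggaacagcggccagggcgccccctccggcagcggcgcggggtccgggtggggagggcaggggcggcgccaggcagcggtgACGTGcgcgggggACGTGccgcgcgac
Ldha: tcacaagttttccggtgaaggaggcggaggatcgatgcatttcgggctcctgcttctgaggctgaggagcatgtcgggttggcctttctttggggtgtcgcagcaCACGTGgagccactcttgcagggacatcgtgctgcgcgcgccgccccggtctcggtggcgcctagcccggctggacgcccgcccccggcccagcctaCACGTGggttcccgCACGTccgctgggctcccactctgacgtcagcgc
Slc5a1: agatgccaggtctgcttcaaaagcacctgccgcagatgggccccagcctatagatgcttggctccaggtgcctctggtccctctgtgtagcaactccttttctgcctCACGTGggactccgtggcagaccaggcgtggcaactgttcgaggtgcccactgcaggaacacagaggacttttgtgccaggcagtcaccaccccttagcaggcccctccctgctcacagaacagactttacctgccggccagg
Khk: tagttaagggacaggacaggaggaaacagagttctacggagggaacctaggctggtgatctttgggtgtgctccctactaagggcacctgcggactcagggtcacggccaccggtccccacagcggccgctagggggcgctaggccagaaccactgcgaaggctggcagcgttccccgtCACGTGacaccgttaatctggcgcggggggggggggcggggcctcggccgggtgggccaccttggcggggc
ACGTG was read on both strands, and each CACGTG, which is its own reverse complement, holds it on both and counts as 2. By that count the window of Ldha holds 5 matches with 2 CACGTG, those of Slc5a1 and Khk 2 matches from 1 CACGTG each, that of Slc16a3 2 and that of Slc2a1 1. The letters are thus in the windows of genes that differed in either direction. Over RefSeq windows of 300 bases, from 250 before to 50 after a start, ACGTG was found for 17 of the 29 genes (58.6%) and for 21.8% of all 27025 genes with a window. CACGTG was found for 7 of the 29 (24.1%) and 8.09% of all genes. GGAATG, the core bound by TEAD factors, the partners of YAP, was searched after the data were seen and was found for 3 of the 29 (10.3%) and 16.6% of all genes. Slc2a2, Slc2a5, Fbp1, Pck1, G6pc and Pfkp were among the 12 genes without ACGTG there. Other annotated starts of Slc2a1, Slc16a3, Ldha and Khk lie within or upstream of the windows printed. Ldha also has a RefSeq window downstream of the one printed, at chr7:46846832-46847131, which holds no ACGTG. A match is a run of letters and not a bound site.

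The apical glucose carrier Slc5a1 (chromosome 5: 33104219-33162870, GRCm38) stood at 957.5 CPM (932-984) in control, 326.5 (321-332) in KO and 1181 (1158-1205) in rescue Fabp1-high barcodes. The KO library was the low one, 2.93-fold below control (2.84-3.03) and 3.62-fold below rescue (3.52-3.72). The basolateral carrier Slc2a2 (chromosome 3: 28697903-28731359) stood at 325, 86.0 and 270 CPM, 3.78-fold lower in KO than in control (3.565-4.003) and 3.13-fold higher in rescue than in KO (2.97-3.31). The fructose carrier Slc2a5 (chromosome 4: 150119283-150144169) stood at 153, 69.2 and 174 CPM, 2.215-fold lower in KO than in control (2.05-2.39) and 2.52-fold higher in rescue than in KO (2.36-2.69). All 3 carriers of absorbed sugar thus stood lowest in the KO library. With the mitochondrial limit at 10%, only 41 rescue barcodes of median depth 4591 UMIs were left, and the log2 ratio of rescue to KO turned to -1.55 for Slc5a1, -2.64 for Slc2a2 and -1.45 for Slc2a5. Sis also stood at 165 CPM in those 41 barcodes. Under that limit the 11 control, 408 KO and 41 rescue barcodes gave 350, 296 and 101 CPM for Slc5a1. Slc2a2 stood there at 155.5, 85.8 and 13.8 CPM and Slc2a5 at 45.4, 62.5 and 22.9 CPM. KO thus lay below control for Slc5a1 and Slc2a2 but above it for Slc2a5, and rescue was lowest for all 3. The KO value of Slc2a5 against control was a log2 of -0.96 under median of ratios scaling.

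GLUT1, encoded by Slc2a1 (chromosome 4: 119108711-119137983), stood highest in the KO library. It stood at 5.20 CPM (3.48-7.47) in control, 44.1 (42.0-46.3) in KO and 8.26 (6.40-10.5) in rescue Fabp1-high barcodes. The KO library was 8.48-fold above control (5.88-12.7) and 5.34-fold above rescue (4.18-6.925). Weighting every barcode equally gave a log2 ratio of KO to control of 2.42 in place of 3.08. Summed over the 4 carriers, the levels were 1441, 526 and 1634 CPM, lowest in the KO library. Among the facilitative carriers Slc2a1, Slc2a2 and Slc2a5, Slc2a1 made up 1.08%, 22.1% and 1.83% of UMIs.

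**Figure D2:**
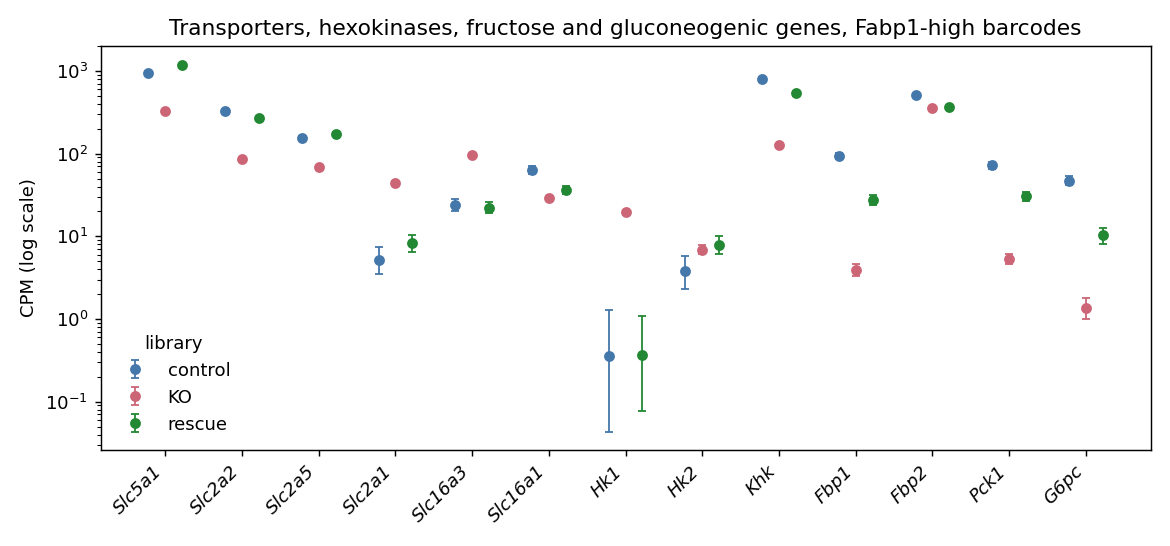
CPM on a log axis in Fabp1-high barcodes for carriers, hexokinases, and genes of fructose use and gluconeogenesis; points are the 3 libraries and bars exact 95% Poisson intervals. The KO points are the lowest for Slc5a1, Slc2a2, Slc2a5, Khk, Fbp1, Pck1 and G6pc and the highest for Slc2a1, Slc16a3 and Hk1.

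Hexokinase traps glucose by phosphorylation, and the gut has the general form Hk1 (chromosome 10: 62268855-62379908) and the inducible form Hk2 (chromosome 6: 82725025-82774454). In Fabp1-high barcodes Hk1 had 2 UMIs in control, 735 in KO and 3 in rescue, or 0.359 (0.0435-1.296), 19.5 (18.1-21.0) and 0.370 CPM (0.0763-1.08). Hk1 was thus near absent from 2 libraries and present in the third, 54.3-fold above control with a wide interval (15.0-449.5) and 52.7-fold above rescue (18.0-256). With barcodes thinned to 10000 UMIs its log2 ratio to control was 2.65 in place of 5.76, and with the mitochondrial limit at 10% that of rescue to KO was -0.48 in place of -5.72. In such alternatives a gene with no UMI in a library was set at a floor of 3 UMIs. With so few Hk1 UMIs in control and rescue, these values may be bounds and not measured ratios. Hk2 stood at 3.77, 6.92 and 7.89 CPM, so the hexokinase that led differed between libraries. Hk1 held 2 of 23 UMIs of the pair in control (8.70%, exact Clopper-Pearson interval 1.07-28.0), 735 of 996 in KO (73.8%, 70.95-76.5) and 3 of 67 in rescue (4.48%, 0.933-12.5).

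The enzymes between glucose-6-phosphate and pyruvate were closer between libraries in Fabp1-high barcodes. Glucose-6-phosphate isomerase (Gpi1) stood at 507, 507 and 389 CPM, and the phosphofructokinase Pfkp, the committed step of glycolysis, at 194, 215 and 245 CPM. The liver form Pfkl stood at 66.9, 58.8 and 24.5 CPM, 2.40-fold lower in rescue than in KO (2.07-2.785), and the muscle form Pfkm at 2.51, 2.02 and 2.34 CPM. Pfkfb3, which makes the activator fructose-2,6-bisphosphate, stood at 23.1, 3.63 and 15.05 CPM, 6.37-fold lower in KO than in control (4.97-8.16). Thus 1 regulator of the step was lowest in the KO library and the main enzyme was not. Aldolase A (Aldoa), which splits the phosphorylated hexose, stood at 512 CPM (493-531) in control, 911 (901-920) in KO and 430 (416-444.5) in rescue, 1.78-fold higher in KO than in control (1.71-1.85) and 2.12-fold lower in rescue than in KO (2.045-2.19). Aldolase C (Aldoc) stood at 33.9, 31.8 and 12.95 CPM, and triosephosphate isomerase (Tpi1) at 887, 865.5 and 672 CPM.

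In the payoff steps Gapdh stood at 2310 (2270-2350), 3643 (3624-3662) and 1981 CPM (1950-2012) in Fabp1-high barcodes, 1.58-fold higher in KO than in control (1.55-1.61) and 1.84-fold lower in rescue than in KO (1.81-1.87). Phosphoglycerate mutase (Pgam1) ran the other way at 550, 255 and 404 CPM, 2.15-fold lower in KO than in control (2.07-2.24), or a log2 of -0.92 in place of -1.11 under median of ratios scaling. The kinase Pgk1 (41.8, 56.3 and 57.1 CPM), enolase (Eno1, 495, 518 and 413 CPM) and pyruvate kinase (Pkm, 793, 846 and 716 CPM) were less than 2-fold apart between any libraries. Neighbouring steps therefore did not move as 1 block, with Gapdh highest and Pgam1 lowest in the same library. Processed pseudogenes of several of these genes, among them Gapdh, Pgk1, Ldha, Aldoa, Tpi1 and Eno1, can share reads with them, and how the authors' counting assigned such reads was not tested.

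Lactate dehydrogenase A (Ldha, chromosome 7: 46841475-46855627) stood at 1687 (1654-1722), 2442 (2426-2458) and 1386 CPM (1360-1412) in Fabp1-high barcodes, 1.45-fold higher in KO than in control (1.42-1.48). Ldhb, the heart-type subunit, had 2, 13 and 3 UMIs. The lactate exporter MCT4, encoded by Slc16a3 (chromosome 11: 120948480-120960868), stood at 24.2 CPM (20.3-28.7) in control, 96.65 (93.5-99.8) in KO and 22.3 (19.2-25.8) in rescue. The KO library was 3.99-fold above control (3.36-4.77) and 4.33-fold above rescue (3.73-5.055), and with the mitochondrial limit at 10% the log2 ratio of rescue to KO was -4.38 in place of -2.11. MCT1, encoded by Slc16a1 (chromosome 3: 104638668-104658462), stood at 63.9, 29.2 and 36.75 CPM, 2.19-fold lower in KO than in control (1.94-2.47), or a log2 of -0.94 under median of ratios scaling. The KO library thus had more of 1 carrier and less of the other. Pdk1, a kinase that holds pyruvate dehydrogenase inactive, stood at 22.6, 7.96 and 12.6 CPM, 2.84-fold lower in KO than in control (2.29-3.51).

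Among the measured genes of the 29 described, the gluconeogenic genes G6pc, Fbp1 and Pck1 held the lowest ratios of KO to control in Fabp1-high barcodes. Khk (chromosome 5: 30921431-30931248), the first enzyme of fructose use, stood at 794 CPM (771-818) in control, 126 (122-130) in KO and 535 (519.5-551.5) in rescue, 6.31-fold lower in KO than in control (6.05-6.57) and 4.25-fold higher in rescue than in KO (4.08-4.43). Fbp1 (chromosome 13: 62864753-62888282) stood at 92.9, 3.90 and 27.5 CPM, 23.8-fold lower in KO (19.8-28.8) and 7.05-fold higher in rescue than in KO (5.70-8.75). With barcodes thinned to 10000 UMIs the log2 ratio of Fbp1 was -3.92 in place of -4.58. Pck1 (chromosome 2: 173153048-173159273), which makes phosphoenolpyruvate for gluconeogenesis, stood at 72.3, 5.28 and 30.3 CPM, 13.7-fold lower in KO (11.5-16.3) and 5.75-fold higher in rescue than in KO (4.75-6.96). G6pc (chromosome 11: 101367561-101377903), which releases free glucose, stood at 47.0 CPM (41.5-53.05) in control, 1.35 (1.01-1.78) in KO and 10.2 (8.15-12.7) in rescue, 34.75-fold lower in KO (25.7-47.9). For Fbp1, Pck1 and G6pc the rescue library lay between the others. Fbp2, the muscle form of the bisphosphatase, stood at 514, 360 and 368 CPM, so it was 1.43-fold lower in KO than in control (1.37-1.49) where Fbp1 was far lower.

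Shares of barcodes with a UMI told the same of these genes when each barcode was thinned to 5000 UMIs, which left 111 control, 727 KO and 172 rescue Fabp1-high barcodes and left out 14, 79 and 36. Khk was found in 97.3%, 44.8% and 85.5% of them (98.4%, 87.3% and 91.3% unthinned), G6pc in 20.7%, 0.688% and 4.65% (61.6%, 4.34% and 21.6% unthinned), and Fbp1 in 38.7%, 1.38% and 9.88% (90.4%, 14.6% and 48.6% unthinned). Slc2a1 was found in 1.80%, 15.8% and 4.07% (21.6%, 54.6% and 22.6% unthinned). Hk1 was found in 0 of 111 control barcodes, which allows a share of up to 2.70%, in 9.35% of KO and in 0 of 172 rescue barcodes, which allows up to 1.74% (0.8%, 45.7% and 1.44% unthinned). These limits, and that for G6pc below, are 3 divided by the number of barcodes and not exact intervals. Immune barcodes (at least 2 Ptprc UMIs and none of Epcam) were thinned alike from median depths of 4997, 5066 and 4848.5 UMIs. They were taken to lack Khk and G6pc and set beside these shares as a possible level of free RNA. In them Khk was found in 17.9%, 7.41% and 13.3% and G6pc in 0.578%, 0% and 0.513% of 173, 54 and 195 barcodes, where none of 54 allows a share of up to 5.56%. At this depth the thinned G6pc share of KO Fabp1-high barcodes could not be told apart from those values. Unthinned, G6pc had 51 UMIs in KO Fabp1-high barcodes and 0 in the 213 KO Mki67 barcodes. Pooled over immune barcodes, Khk stood at 45.7, 19.7 and 27.6 CPM and Slc5a1 at 40.1, 13.9 and 13.0 CPM. Slc2a2 stood at 0, 1.16 and 1.62 CPM there, and whether the Khk of immune barcodes is free RNA was not tested. Slc2a1, Hk1 and Slc16a3 are also expressed by blood cells, so immune barcodes give no background for them. Their KO levels in immune barcodes were 32.4, 26.6 and 86.8 CPM beside 44.1, 19.5 and 96.65 CPM in Fabp1-high barcodes, and the part of RNA from other cells in the latter was not tested.

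In Mki67 barcodes several glycolytic enzymes were higher in the KO library than in control. Of 26 genes measured between KO and control, 7 were at least 2-fold higher in the KO library (Hk1, Pfkp, Aldoa, Aldoc, Gapdh, Ldha and Slc16a3), against 9.11% of all 10628 genes, and 3 lower (Pfkfb3, Khk and Fbp1), against 7.66%. The median log2 ratio was 0.54, and 0.09 over all genes. All 5 payoff genes and 8 of 10 preparatory genes had a ratio above 1. Between rescue and KO, 4 of 27 were higher in rescue (Hk2, Pfkfb3, Khk and Pck1), against 7.67% of all 11324 genes, and 4 lower (Slc2a1, Hk1, Aldoa and Slc16a3), against 6.73%, with a median of -0.38 and of -0.03 over all genes. Summed over all 29 genes, the level in Mki67 barcodes was 3457 CPM in control, 6452 in KO and 4561 in rescue, whereas in Fabp1-high barcodes it was 11180, 11540 and 9432 CPM.

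Aldoa stood at 176 (163-189), 662 (648-676) and 302 CPM (294-310) in Mki67 barcodes, 3.77-fold higher in KO than in control (3.48-4.08) and 2.19-fold lower in rescue than in KO (2.12-2.27). Pfkp stood at 39.8 (33.8-46.7), 152 (145-159) and 106 CPM (102-111), 3.82-fold higher in KO than in control (3.24-4.53). Gapdh stood at 661 (636-687), 1684 (1661-1707) and 948 CPM (934-962), 2.55-fold higher in KO (2.44-2.65), and Ldha at 636, 1357 and 1015 CPM, 2.13-fold higher (2.04-2.23). In all 4 genes the rescue library lay between control and KO. These differences depended on which barcodes were pooled. In barcodes of exactly 1 type the log2 ratio of KO to control was 1.24 for Pfkp in place of 1.93, 0.92 for Gapdh in place of 1.35, and 0.49 for Ldha in place of 1.09, and in barcodes with under 1% of UMIs from the Paneth cell genes Defa24 and Lyz1, which kept 69 control and 213 KO barcodes, it was 1.63, 1.10 and 0.81. With the mitochondrial limit at 10%, which left 27 control barcodes, it was 3.07, 1.82 and 1.78.

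Immune barcodes (at least 2 Ptprc UMIs and none of Epcam) were also highest in the KO library for most of these enzymes. There Gapdh stood at 692, 1672 and 684 CPM, Aldoa at 243, 680 and 219.5 CPM, Ldha at 290, 645 and 315 CPM and Slc16a3 at 20.9, 86.8 and 24.3 CPM in control, KO and rescue. Eno1 (106, 419 and 158 CPM) and Pkm (178, 511 and 201 CPM) were also highest in the KO library. Pfkp did not share it, at 117, 89.2 and 93.7 CPM. The KO library held only 105 immune barcodes, with summed enterocyte markers of 2295 CPM against 840 CPM in control and 958 CPM in rescue, and whether free RNA, the kinds of immune cell or the library account for these levels was not tested.

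**Figure D3:**
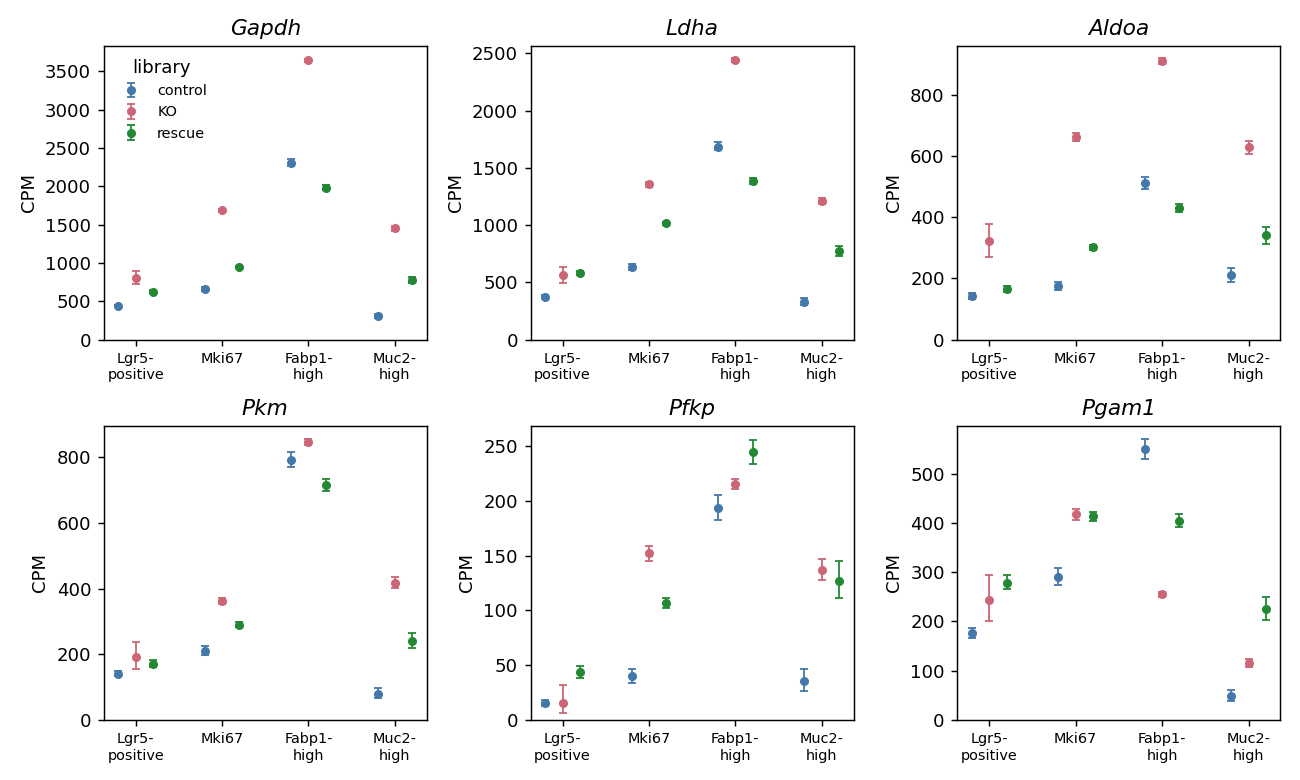
CPM of 6 glycolytic genes by type and library with exact 95% Poisson intervals; each panel has its own axis from 0. KO points lie highest for Gapdh and Aldoa in all 4 types, and for Pgam1 in Fabp1-high barcodes the KO point is the lowest.

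Genes at least 2-fold apart between some pair of libraries in Mki67 barcodes also included Slc2a1, both hexokinases, Slc16a3, Khk and Fbp1. Slc2a1 stood at 16.8, 30.7 and 13.2 CPM, 1.82-fold higher in KO than in control (1.40-2.41) and 2.32-fold lower in rescue than in KO (1.975-2.73). Hk1 had 2, 124 and 17 UMIs and stood 19.1-fold higher in KO than in control (5.18-159), or a log2 of 2.94 in place of 4.26 with the mitochondrial limit at 10%. Hk2 stood at 40.1, 29.2 and 64.2 CPM, 2.20-fold higher in rescue than in KO (1.96-2.48), or a log2 of 0.97 with every barcode weighted equally. Slc16a3 had 8, 191 and 34 UMIs and stood at 2.07, 15.2 and 1.77 CPM, 7.35-fold higher in KO than in control (3.66-17.3) and 8.60-fold lower in rescue than in KO (5.95-12.8). Slc2a1, Hk1 and Slc16a3 were thus highest in the KO library here as in Fabp1-high barcodes. Khk stood at 119.5, 47.5 and 96.6 CPM, 2.52-fold lower in KO than in control (2.22-2.85), but its log2 ratio was -0.24 with the mitochondrial limit at 10%. Fbp1 stood at 37.8, 11.6 and 15.6 CPM, 3.25-fold lower in KO (2.56-4.11), or a log2 of -0.71 under that limit. Slc5a1 stood at 77.1, 72.2 and 91.9 CPM in Mki67 barcodes, less than 2-fold apart in any pair of libraries. The remaining genes were less than 2-fold apart between KO and control or too rare to measure (Pck1, G6pc and Ldhb), apart from Aldoc (2.33 and 6.77 CPM) and Pfkfb3 (4.66 and 1.83 CPM).

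Muc2-high barcodes held the highest share of genes above control in the KO library. Of 25 measured, 15 were at least 2-fold higher, against 16.7% of all 8977 genes, and 2 lower (Pfkfb3 and Pck1), against 13.5%, with a median log2 ratio of 1.40 and of -0.06 over all genes. Gapdh stood at 306, 1450 and 774 CPM, 4.74-fold higher in KO than in control (4.31-5.22), Pkm at 80.1, 417 and 240 CPM, 5.21-fold higher (4.33-6.33), and Ldha at 328, 1213 and 774 CPM, 3.70-fold higher (3.37-4.07). Slc2a1 stood at 30.8, 109 and 29.6 CPM, 3.53-fold higher in KO than in control (2.605-4.88) and 3.67-fold lower in rescue than in KO (2.75-4.998), and Hk1 at 10.95, 38.6 and 10.1 CPM. Slc16a3 had 2, 431 and 11 UMIs and stood 53.3-fold higher in KO than in control (14.7-441) and 11.2-fold lower in rescue than in KO (6.20-22.6). These 3 genes again had their highest level in the KO library. Beside them, Fabp1 stood at 63.0, 3032 and 1123 CPM and the summed enterocyte markers at 1419, 18030 and 6153 CPM in the same barcodes, and 21 KO barcodes were both Muc2-high and Fabp1-high against 0 in control. In barcodes of exactly 1 type the log2 ratio of KO to control was 1.14 for Slc5a1 in place of 1.89, 0.98 for Pgam1 in place of 1.26 and 1.72 for Aldoc in place of 2.35, and 2.09 for Gapdh in place of 2.24. Between rescue and KO, 4 of 24 genes were higher (Slc2a5, Slc5a1, Khk and Pck1), against 19.1% of all 8998 genes, and 5 lower (Slc2a1, Hk1, Pfkl, Aldoc and Slc16a3), against 9.69%.

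In Lgr5-positive barcodes the KO library had 17 barcodes and was given levels only. Gapdh stood at 439 (424-455), 807 (726-894) and 623 CPM (602-644), and Aldoa at 143, 320.5 and 164 CPM. Hk1 stood at 1.99, 0 and 1.09 CPM with 14, 0 and 6 UMIs, where the exact interval of 0 UMIs reaches 8.15 CPM. Between rescue and control 2 of 25 genes were at least 2-fold higher (Pfkp and Pgk1), against 4.18% of all 10368 genes, and 1 lower (Pck1), against 5.98%, with a median log2 ratio of 0.04 for both the 25 genes and all genes. Pfkp stood at 15.05 CPM (12.3-18.2) in control and 43.2 (37.9-49.1) in rescue, 2.87-fold higher (2.28-3.65), and with at least 2 Lgr5 UMIs the log2 ratio was 2.15 in place of 1.52. Pgk1 stood at 17.9 and 46.5 CPM, 2.60-fold higher (2.09-3.24). The other genes measured were less than 2-fold apart between these libraries. Of the Lgr5-positive barcodes, 33 of 157 in control and 46 of 70 in rescue were also Mki67 barcodes, and their part in these ratios was not tested.

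Rescue and control were also compared in the other large types. In Mki67 barcodes 2 of 26 genes were at least 2-fold higher in rescue (Pfkp, 2.67-fold, 2.26-3.16, and Pgk1, 2.415-fold, 1.995-2.95), against 4.36% of all 11152 genes, and 3 lower (Slc2a2, Fbp1 and Pck1), against 5.56%. The Slc2a2 value rested on 3 control barcodes that were also Fabp1-high. Without barcodes of both types its control UMIs fell from 50 to 7. It then stood at 1.87 CPM in control and 3.74 CPM in rescue, so it was not lower in rescue. In Fabp1-high barcodes 1 of 26 was higher (Hk2, 2.095-fold, 1.26-3.61), against 2.22% of all 9149 genes, and 5 lower (Pfkl, Aldoc, Fbp1, Pck1 and G6pc), against 6.75%. G6pc was 4.59-fold lower in rescue than in control (3.575-5.95) and Fbp1 3.38-fold lower (2.88-3.97). Slc5a1, Slc2a2 and Slc2a5 lay within 1.23-fold, 1.21-fold and 1.14-fold of control in rescue Fabp1-high barcodes. With the mitochondrial limit at 10%, which left 11 control and 41 rescue barcodes, rescue stood below control for these carriers, at 100.9 against 349.9 CPM for Slc5a1, 13.8 against 155.5 CPM for Slc2a2 and 22.9 against 45.4 CPM for Slc2a5.

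Pooled over all epithelial barcodes, 7 of 29 genes were at least 2-fold higher in KO than in control, against 10.8% of all 12668 genes, and 8 lower, against 25.3%. Between rescue and KO 6 were higher and 6 lower, against 22.7% and 11.1% of all 12743 genes. Slc16a3 was 9.535-fold higher in KO than in control and G6pc 15.3-fold lower. These pooled values also carry the mixture of types, since Fabp1-high barcodes made up 24.3%, 53.6% and 28.65% of epithelial barcodes, and a different mixture cannot be told apart from a different level there.

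Most of the 29 genes were higher in Fabp1-high than in Mki67 barcodes of the same library, after barcodes in both types were left out. In control 19 of 26 were at least 2-fold higher and 2 lower, against 15.8% and 33.1% of all genes. In KO 13 of 28 were higher and 4 lower, against 13.5% and 41.5%, and in rescue 14 of 27 were higher and 2 lower, against 11.0% and 41.4%. Slc2a2 was higher in Fabp1-high barcodes by 173.5-fold, 33.25-fold and 72.35-fold, and Slc5a1 17.6-fold, 6.92-fold and 14.6-fold. Khk was 8.06-fold, 3.22-fold and 5.76-fold higher. The step between the types was thus smaller in KO for these 3 genes, and the difference between libraries was not tested. The carrier Slc2a5 did not share it, at 20.6-fold, 23.5-fold and 23.65-fold higher in Fabp1-high barcodes. For 5 genes intervals lay on opposite sides of 1 in different libraries. Slc2a1 was 3.33-fold lower in Fabp1-high than in Mki67 barcodes in control and 1.58-fold lower in rescue but 1.45-fold higher in KO, and Fbp1 was 2.635-fold and 1.77-fold higher in control and rescue but 3.34-fold lower in KO. Pgam1 was 1.96-fold higher in Fabp1-high barcodes in control and 1.68-fold lower in KO, while Pgk1 (1.42-fold) and Pfkl (1.45-fold) were higher in control and lower in rescue (1.27-fold and 1.235-fold). Hk2 was lower in Fabp1-high barcodes of every library, by 10.75-fold, 4.835-fold and 9.27-fold. G6pc had no UMI in the Mki67 barcodes of control and KO, and against a floor of 3 UMIs was at least 56.7-fold and at least 5.05-fold higher in Fabp1-high barcodes.

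Of 7 families with more than 1 isoform or paralog, 3 changed their leading gene between libraries with intervals on opposite sides of 50%, or not overlapping for families of 3. Hk1 and Hk2 did so in Fabp1-high barcodes (above). MCT4 held 27.5% (23.6-31.7), 76.8% (75.6-78.0) and 37.8% (33.4-42.3) of the UMIs of Slc16a1 and Slc16a3 in control, KO and rescue Fabp1-high barcodes, and 3.28%, 74.3% and 11.6% in Muc2-high barcodes. In Mki67 barcodes MCT1 led in all 3 libraries, with Slc16a3 at 2.105%, 17.1% and 2.16%, and the KO share there ranged from 6.25% to 17.1% over the alternatives run. The third family was phosphofructokinase. Pfkl led in control Lgr5-positive barcodes with 68.7% (64.0-73.1), and Pfkp in rescue ones with 61.2% (56.1-66.05), while in Mki67 barcodes Pfkp held 44.5%, 73.1% and 75.65%. Of the Lgr5-positive barcodes, 33 of 157 in control and 46 of 70 in rescue were also Mki67 barcodes, and their part was not tested. Pfkp led in Fabp1-high barcodes of all 3 libraries, with 73.6%, 78.0% and 90.1%. The leading gene also differed between types of 1 library in 4 families, those 3 and the facilitative hexose carriers, where Slc2a1 led in KO Mki67 barcodes with 61.5% and Slc2a2 in KO Fabp1-high barcodes with 43.2%. Aldoa over Aldoc, Ldha over Ldhb and Fbp2 over Fbp1 led in every library and type. The M1 and M2 forms of Pkm come from 1 gene and could not be separated.

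**Figure D4:**
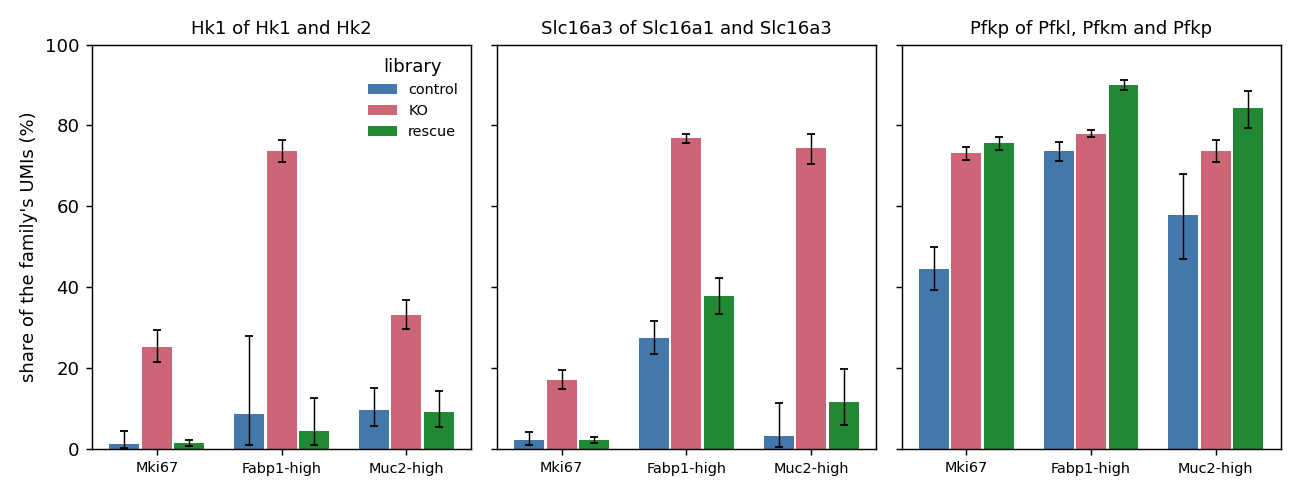
Share of a family's UMIs held by Hk1, Slc16a3 and Pfkp in 3 types, with exact 95% Clopper-Pearson intervals of counting error. The KO bars of Hk1 and Slc16a3 stand above both other libraries in each type, and those of Pfkp do not.

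The Fabp1-high barcodes of the KO library were not uniform. They were thinned to 5000 UMIs in a random draw separate from that of the shares of barcodes above, so counts of barcodes with a UMI differ slightly. Of them, 496 had a Slc5a1 UMI and 231 had none, a split chosen after the data were seen and given as a description. Slc2a1 stood at 31.05 CPM in those with Slc5a1 and 65.8 CPM in those without, 2.12-fold lower (1.52-2.95), whereas Slc2a2 (121 and 44.2 CPM), Slc2a5 (83.1 and 31.2 CPM) and the brush border gene Sis (337.5 and 145 CPM) were higher in those with Slc5a1. Other enterocyte genes did not follow Sis: Apoa4 stood at 8323 and 11040 CPM, Fabp1 at 14710 and 14920 CPM and Alpi at 3338 and 3009 CPM. Hk1 (16.9 and 23.4 CPM), Slc16a3 (92.7 and 100.4 CPM) and Pgam1 (259 and 253 CPM) had intervals of the ratio that included 1. Slc2a2 and Slc2a5 were therefore higher, and Slc2a1 lower, in the KO barcodes with Slc5a1. Split instead on Slc2a1, 100 barcodes had a UMI and 627 had none, and the contrasts were smaller. Slc5a1 was 1.465-fold (1.215-1.78), Slc2a2 1.445-fold (1.02-2.11) and Slc2a5 1.68-fold (1.07-2.77) lower in those with Slc2a1.

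The other 84 genes of neighbouring steps were counted by the same rule. In Fabp1-high barcodes 4 of 68 measured were at least 2-fold higher and 29 lower in KO than in control, against 10.7% and 17.7% of all genes, with a median log2 ratio of -0.55 and of -0.17 over all genes. Between rescue and KO 18 were higher and 5 lower, against 10.2% and 12.1%. By group, 7 of 12 genes of pyruvate entry into mitochondria, 6 of 9 measured other hexose and monocarboxylate transporters and 2 of 4 disaccharidases were at least 2-fold lower in KO, and 0 of 12, 1 of 9 and 0 of 4 higher. Among regulators 6 of 11 were lower, among other isoforms of glycolysis and gluconeogenesis 4 of 18, among fructose and galactose steps 3 of 7 and in the pentose phosphate pathway 1 of 7, with 0, 2, 1 and 0 higher. The lowest ratios at 50 CPM or more were those of lactase (Lct, 309, 0.504 and 195 CPM, 613-fold lower, 391-1021), the inositol and sugar carrier Slc5a11 (76.6, 1.38 and 53.6 CPM, 55.5-fold lower) and the glucose-6-phosphate carrier Slc37a4 (78.6, 6.52 and 46.9 CPM, 12.0-fold lower), which works with G6pc. The highest were those of pyruvate carboxylase (Pcx, 12.4, 67.45 and 21.3 CPM, 5.45-fold higher) and the phosphoglucomutase family gene Pgm1 (76.4, 258.5 and 77.1 CPM, 3.38-fold higher). Pcx, a first enzyme of gluconeogenesis from pyruvate, thus stood opposite to Pck1, Fbp1 and G6pc.

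In Mki67 barcodes 9 of 64 measured genes of neighbouring steps were at least 2-fold higher and 6 lower in KO than in control, against 9.11% and 7.66% of all genes, with a median log2 ratio of 0.15 and of 0.09 over all genes. The lower share and the median lay near those of all genes. The highest at 50 CPM or more were those of Pgd, of the pentose phosphate pathway (99.1, 335 and 203 CPM, 3.38-fold higher, 3.05-3.765), the metabolic transcription factor Creb3l3 (34.4, 93.7 and 26.9 CPM, 2.72-fold higher) and mitochondrial malate dehydrogenase (Mdh2, 548.5, 1186 and 746 CPM, 2.16-fold higher). The lowest were those of Mlxipl, the carbohydrate response factor ChREBP (55.6, 25.0 and 56.3 CPM, 2.22-fold lower), Txnip, an inhibitor of glucose uptake (623.5, 352 and 280 CPM, 1.77-fold lower) and the disaccharidase Sis (106, 63.2 and 126 CPM, 1.68-fold lower). Of the 12 regulators of the pathway 2 were at least 2-fold higher and 4 lower in KO Mki67 barcodes, beside the same 9.11% and 7.66% of all genes.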

How the data were processed

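Per the labels' protocols, small intestinal crypts were dissociated with TrypLE and cells were captured on the 10x Chromium 3' v3 platform, 1 library per genotype. The deposited values are UMI counts per gene and barcode, made by the authors with Cell Ranger, given as 1.3.0 in the submitters' processing notes and as 3.0.2 (control, KO) and 3.1.0 (rescue) per the file headers. The build used for alignment was not given in the sources used here. Coordinates are GENCODE vM21 (GRCm38), in which 28339 of 28692 gene IDs were found, and promoters are RefSeq GRCm38.p6. The libraries held 6152, 4786 and 3449 barcodes with 58433966, 85525811 and 64355665 UMIs, and 1595, 2036 and 1897 barcodes passed the limits on genes, UMIs and mitochondrial share.

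Raw counts were pooled per library and type with Python 3.11.15, numpy 2.4.6, pandas 2.3.3 and scipy 1.17.1, and figures drawn with matplotlib 3.10.9. Ratios needed 20 barcodes in both libraries. No test was made, since each genotype has 1 library, and intervals cover counting error only. The interval code was tested on simulated data. Possible doublets were kept and removed in an alternative, at 0.8% per 1000 barcodes. The genes and lists were chosen with earlier results of these data known. Values in each library are given for genes at least 2-fold apart with at least 50 CPM in 1 library and for families whose leading gene differed. For neighbouring genes the 3 highest and 3 lowest ratios of KO to control at 50 CPM or more are named, except 1 gene that is not reported here. Genes under 50 CPM, single genes in Muc2-high, Lgr5-positive and immune barcodes, and the splits of KO barcodes were chosen after the values were seen. The alternatives were 17 planned and 2 added after seeing the data.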

Additional observations from a re-analysis of the deposited data

Results flagged for a closer look

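For 3 genes the KO library lay above control in Muc2-high barcodes and below it in Fabp1-high barcodes, and this difference between types was not tested. The log2 ratio of KO to control was 4.89 and -1.92 for Slc2a2, 1.89 and -1.55 for Slc5a1, and 1.26 and -1.11 for Pgam1. Slc2a2 had 1 UMI in control Muc2-high barcodes. In Muc2-high barcodes the enterocyte gene Fabp1 stood at 63.0 CPM in control and 3032 CPM in KO, and 21 KO barcodes were in both types against 0 in control. In barcodes of exactly 1 type the Muc2-high ratios were 3.34, 1.14 and 0.98. The part of enterocyte RNA in what remained was not tested.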

How the results depend on the processing

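No paired analysis was possible because each genotype has 1 library. Counts of genes at least 2-fold apart stayed within 1.5 times of those reported in 108 of 124 values. The following did not, and the cause was not tested beyond the fewer barcodes or genes named. With the mitochondrial limit at 10%, 14 genes were higher and 0 lower in KO than in control Mki67 barcodes, 1 was higher and 8 lower in rescue than in KO Mki67 barcodes, and 11 were lower in rescue than in KO Fabp1-high barcodes. That limit left 11 control Fabp1-high barcodes, too few for a ratio to KO. With barcodes thinned to 10000 UMIs before typing, 3 were higher and 1 lower in KO than in control Mki67 barcodes (17 measured), and 1 higher and 1 lower in rescue than in KO (18 measured). For rescue against KO in Mki67 barcodes, 2 were higher with every barcode weighted equally, with doublets removed, or with at least 100 UMIs per gene. Median of ratios scaling gave 5 higher in KO Fabp1-high barcodes. At 1.5-fold, 12 were higher in KO Mki67, 6 higher in KO Fabp1-high and 10 lower in rescue than in KO Mki67 barcodes.

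Of 606 alternative values of single ratios, 483 moved by less than counting error, 120 moved further and 3 reversed. The reversed ones were rescue against KO in Fabp1-high barcodes with the mitochondrial limit at 10%, at a log2 of -2.64 for Slc2a2, -1.45 for Slc2a5 and -1.55 for Slc5a1. Of 75 ratios, 18 fell under 2-fold in at least 1 alternative, where a gene with no UMI in a library was set at 3 UMIs. Shares were rerun only for Hk1 and Slc16a3 within their pairs, in Mki67 and Fabp1-high barcodes. Of these 105 alternative shares, 85 stayed within their intervals and 0 reversed. Shares of the other families and in the other types were not rerun.

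Depth limits the rare genes most: Hk1 in control and rescue Fabp1-high barcodes and Slc16a3 in control Muc2-high barcodes rest on 2 or 3 UMIs, and their ratios are given by their intervals more than by their values. Variation between mice was not measured.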
